A study of Mus musculus with 19 samples.

Results

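Potassium channel genes were followed in the ribosome-bound mRNA of mouse striatal spiny projection neurons (SPNs), the output neurons of the striatum. The set comprised every protein-coding gene of GENCODE M21, on the GRCm38 (mm10) assembly, whose symbol starts with Kcn, without the Kcnip genes, which encode partners of one channel family. The rule uses names alone, although the set was chosen with earlier results of these data known. It gave 90 genes, and all 90 were present among the 39017 genes of each library's table. Of these, 57 passed the filter on low counts and were tested. In translating ribosome affinity purification (TRAP), ribosomes that carry an EGFP-tagged L10a protein are pulled down together with the mRNA they hold. The animals were female mice on a background labelled C56BL/6J, carrying either Drd1::EGFP-L10a, which tags ribosomes of D1 neurons, or Drd2::EGFP-L10a, which tags those of D2 neurons. Striatal RNA was collected at 42 days (young) or 2 years (old) of age, giving 4 libraries in each group: D1 and D2 at 42 days, called young, and D1 and D2 at 2 years, called old. All 4 groups carry a tag, so no comparison is against untagged tissue. The tag follows the activity of a receptor gene rather than an anatomical class, and Drd2 is also active in striatal cholinergic interneurons. The study names the 4 libraries in each group as biological replicates, and their spread is biological and technical together. A further 3 samples of ribosome profiling in NIH-3T3 fibroblasts are not analysed here.

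Potassium channels let potassium leave the cell and so pull the membrane towards rest. In SPNs, inward rectifiers hold the resting potential far below threshold, two-pore channels add a standing leak, and voltage-gated channels of the Kv1 and Kv4 classes delay the first spike. Kv7 channels carry the M-current, a slow brake on firing that closes when muscarinic receptors are active, while Kv3 and calcium-activated channels shape repolarisation and repetitive firing. Beta subunits and electrically silent Kv subunits form no channel of their own and alter those they join.

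All pore-forming subunits surround the ion path with the same short loop, the selectivity filter, which makes the codons of this loop the clearest sequence shared by otherwise different members. The most abundant coding isoform of each gene in GENCODE M21 was searched in frame for threonine or serine, any residue, glycine, then tyrosine, phenylalanine or leucine, then glycine. A match was found once in 59 genes, more than once in 16 and not at all in 15. Among the 57 tested genes, 45 had 1 match, 7 had 2 and 5 had none. In Kcna6 and Kcnh2, which have 1 pore loop per subunit, 1 of the 2 matches lay outside that loop, so 2 matches do not always mean 2 pores. The tested genes without a match were the 3 beta subunits Kcnab1, Kcnab2 and Kcnab3, the BK subunit Kcnmb4, and Kcnu1, for which the most abundant isoform was a short one. The filters are shown for Kcnk2, which like Kcnq3 was called in 3 comparisons, and for Kcnj2 and Kcna4, which stand for SPN rest and spike delay and were called in none. They are given 5′ to 3′ on the coding strand as 39 bases of GRCm38, with the 5 codons of the filter in capitals.
Kcna4, chr2:107296483-107296521, plus strand, exon 2: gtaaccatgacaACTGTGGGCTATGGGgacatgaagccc
Kcnj2, chr11:111072195-111072233, plus strand, exon 2: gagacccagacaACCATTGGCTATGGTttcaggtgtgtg
Kcnk2 pore 1, chr1:189258879-189295612, minus strand, joined across the intron between exons 3 and 4: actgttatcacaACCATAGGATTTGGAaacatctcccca
Kcnk2 pore 2, chr1:189256569-189256607, minus strand, exon 5: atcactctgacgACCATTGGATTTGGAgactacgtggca
The fourth codon of the filter encoded tyrosine in the voltage-gated gene Kcna4 and in the inward rectifier Kcnj2. In both pores of Kcnk2 it encoded phenylalanine. The capital bases differed between all 4 pores shown.

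The libraries held 27484038 to 70903004 assigned fragments. At this depth a gene with no count lies below 0.0423 to 0.109 CPM (counts scaled to library size), taking a floor of 3 counts per library, which covers counting error only. The old D1 libraries differed from the remaining 12. In them, a count was found for 10364 to 13694 genes against 12770 to 14992 elsewhere, and for 43 to 59 of the 90 potassium channel genes against 53 to 62. A gene's length exceeded its RSEM effective length, a gap that follows the fragment length, by a median of 150 to 163 bases against 169 to 194, and the ribosomal-repeat transcript Gm42418 took 4.45% to 5.41% of fragments against 9.76% to 18.2%. D1 markers summed to 2664 to 3486 TPM, a relative transcript abundance corrected for length, in young D1 and 4858 to 7779 in old D1, against 145 to 172 in young D2 and 441 to 690.4 in old D2. D2 markers summed to 7839.9 to 9031 and 5688 to 11719 TPM in young and old D2, against 108 to 226 and 112 to 551 in young and old D1. Every result below that involves old D1 therefore rests on libraries that differ from the rest in these ways, and age and these properties cannot be told apart in D1. In bulk libraries, fewer cells of a type and less RNA per cell also cannot be told apart.

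The potassium channel genes expressed most highly per length were a beta subunit and an M-channel subunit (plot of TPM for the highest genes). Kcnab1, a cytoplasmic beta subunit of Kv1 channels, had the highest mean over the 16 libraries at 353 TPM, and the M-channel subunit Kcnq3 had 221 TPM. The highest 20 genes held 84.3%. In young D1, Kcnab1 as a whole gene ranged over 235 to 386 TPM, above and not overlapping Kcnq3 at 109 to 193. In young D2 the order began in the same way, with Kcnab1 at 300.1 to 456 TPM clear of Kcnq3 at 102 to 209.7. Kcnk2, a two-pore leak channel opened by stretch and lipids, came next there at 113 to 137 TPM and overlapped Kcnq3. In old D1 the first place passed to Kcnq3 at 348 to 677 TPM, which overlapped Kcnab1 at 326 to 538. Old D2 had Kcnab1 at 188 to 299 TPM and Kcnq3 at 78.6 to 146. These ranges are of whole genes. By estimate, protein-coding isoforms held 48.1% of the mean TPM of Kcnab1 and 100% of that of Kcnq3. The coding isoform of Kcnab1 alone, given below, overlapped Kcnq3 in young D1 and lay below it in old D1.

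**Figure D1:**
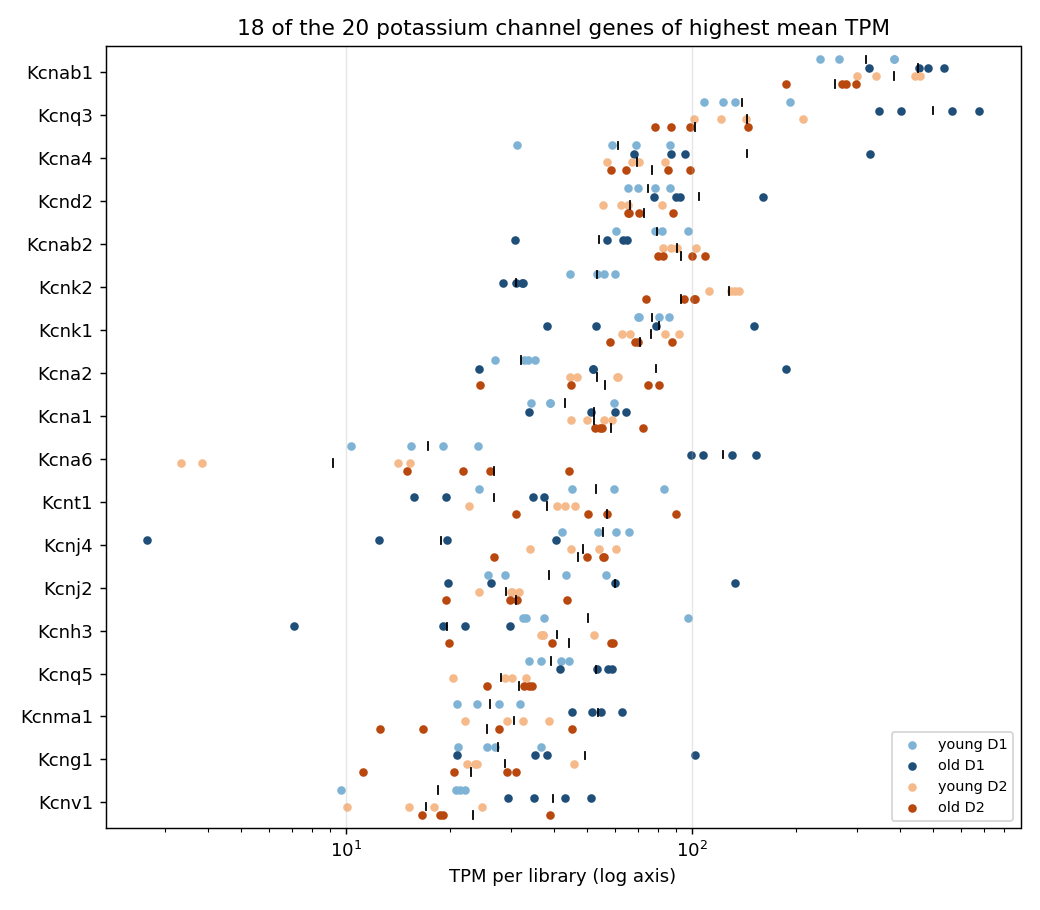
TPM of 18 of the 20 potassium channel genes of highest mean TPM (log axis), ordered by that mean; each point is 1 library, with 4 points per group, and the black tick is the group mean. Kcnq3, Kcna6 and Kcnma1 in old D1 sit to the right of their other groups' means, and Kcnk2 is lower in D1 than in D2 at each age.

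Below the leading genes, many members were present at intermediate TPM with overlapping ranges, so their order is not fixed by these libraries. The Kv4 subunit Kcnd2, which carries much of the somatic A-current, had 86.4, 65.3, 70.1 and 78.4 TPM in young D1, 82, 62.4, 55.6 and 65.4 in young D2, 90.4, 92.6, 77.7 and 160.4 in old D1 and 66.1, 65.7, 70.4 and 88.6 in old D2. Its relative Kcnd1 was more variable, and young D1 alone ranged over 4.37 to 121 TPM. Kcnd3, the third Kv4 gene, ranged over 0.05 to 6.02 TPM in young D1, 7.14 to 12.1 in young D2, 3.43 to 12.7 in old D1 and 14.9 to 23.7 in old D2. Among delayed rectifiers, Kcna1 averaged 51.6 and Kcna2 55.1 TPM over the 16 libraries. The leak channel Kcnk1 averaged 76.2, the beta subunit Kcnab2 79.4, the sodium-activated channel Kcnt1 43.8, the BK channel Kcnma1 34.0 and the silent subunits Kcng1 and Kcnv1 32.2 and 24.6 TPM. Of the Kv3 genes, which allow fast firing in interneurons, Kcnc1 averaged 20.2 TPM, while Kcnc2 averaged 2.83 and Kcnc4 0.487 TPM. The small-conductance channel genes Kcnn3 and Kcnn2 averaged 15.8 and 4.28 TPM.

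Part of the set was near or at zero. In all, 36 of the 90 genes were above 0 TPM in every library, 33 had a mean of at least 10 TPM, and 15 were listed at 0 TPM in all 16 libraries. The 15 were Kcna7, Kcna10, Kcne1, Kcne2, Kcnj1, Kcnj13, Kcnj15, Kcnk5, Kcnk7, Kcnk16, Kcnk18, Kcnmb2, Kcnmb3, Kcnn4 and Kcnq1. A further 18 were untested but above 0 somewhere, with Kcnj14, an inward rectifier, the highest at a mean of 0.487 TPM. The G-protein-gated channel gene Kcnj6 was among these 18 at a mean of 0.0306 TPM, whereas its family members Kcnj3 and Kcnj9 averaged 11.9 and 12.04 TPM. Of the leak channels that set rest in many other neurons, Kcnk3 averaged 1.04 TPM and Kcnk9, which was untested, 0.281 TPM.

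The summed TPM of the set was larger in old D1 than in the other groups. Summed over the 90 genes, TPM was 1656 ± 124 (SD, n = 4) in young D1, 1768 ± 140 in young D2, 2439 ± 192 in old D1 and 1675 ± 220.0 in old D2. The old D1 libraries ranged from 2222 to 2678 TPM and lay above the highest library of any other group, at 1985. Mean TPM in young and old D1 was 139.5 and 499 for Kcnq3, 318 and 450 for Kcnab1 and 17.3 and 123 for Kcna6. In old D1 most of Kcnab1 and Kcna6 was non-coding isoforms by estimate, as given below. Of the 57 tested genes, 30 had a positive log2 fold change between young and old D1, so the larger sum is not a rise of every member. The family sums furthest apart between young and old D1 were those of Kv7 and Kv1 genes. Kv7 genes summed to 306 ± 58.6 TPM in young D1 and 692 ± 164 in old D1, and Kv1 genes to 161 ± 27.8 and 408 ± 113. The Kv7 sums include Kcnq3 and the Kv1 sums include Kcna6, at the means just given. In old D1 the Kv1 sums also hold single high libraries of Kcna4 (329 TPM, replicate 2) and Kcna2 (187 TPM, replicate 4). Inward rectifiers summed to 132 ± 11.4 and 137 ± 85.5 TPM and two-pore channels to 133 ± 3.04 and 122 ± 46.5. No test was made on these sums.

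The first comparison asked how D1 and D2 neurons of young mice differ. Kcnk2 was lower in D1 than in D2 neurons at 42 days, and it was the single potassium channel gene called. The libraries had 44.4, 55.7, 60.02 and 53.3 TPM in young D1 and 113, 137, 133 and 129.7 in young D2. All 4 D1 libraries lay below all 4 D2 libraries. The log2 fold change, D1 over D2, was -1.15 (SE 0.20, adjusted p = 0.0061) by edgeR's quasi-likelihood test with Benjamini-Hochberg adjustment over 13926 genes, the test behind every adjusted p below. A gene is called at an adjusted p under 0.05. Kcnk2 lies at chr1:189207930-189402273 on the minus strand (ENSMUSG00000037624), and 604 bases of its exons overlap the antisense gene A430027H14Rik; strand use in counting is not given in the sources used here. Of all tested genes 0.409% were called in this comparison, 0.201% higher and 0.208% lower in D1, against 1 of 57 potassium channel genes. The call held in every alternative analysis run and without any 1 of the 8 libraries, with log2 fold changes between -1.26 and -1.04. The two-pore genes together, Kcnk2 among them, summed to 129 to 135 TPM in young D1 and 179.8 to 231 in young D2. This sum holds the Kcnk2 values and is no separate sign, and Kcnk1 averaged 76.6 and 76.4 TPM in the same groups. Summed markers of cholinergic interneurons were 0.31 to 6.94 TPM in young D1 and 12.8 to 35.4 in young D2 over the 6 measured genes, and their part in the result was not tested. Markers shared by both SPN types (10 genes) summed to 6936 to 8588 TPM in young D1 and 10368 to 12165 in young D2. At 2 years they summed to 6407 to 7025 TPM in D1 and 9239 to 9938 in D2, and their part was not tested either.

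The other 56 tested genes were not called between young D1 and young D2. The median log2 fold change over the 57 was 0.21, against 0.02 over all genes tested. At an unadjusted p under 0.05 there were 3 of 57, or 5.26%, beside 6.01% of all genes. Kcnq5, an M-channel subunit, had 36.8, 33.9, 44.3 and 41.8 TPM in young D1 and 20.4, 33.3, 28.9 and 30.2 in young D2, groups that did not overlap, with a log2 fold change of 0.57 (SE 0.23, adjusted p = 0.672). Kcnq3 was close to even, at 0.07 (SE 0.24, adjusted p = 0.999), with overlapping groups. The inward rectifiers most associated with SPN rest gave 0.56 (SE 0.48, adjusted p = 0.999) for Kcnj2 and 0.32 (SE 0.51, adjusted p = 0.999) for Kcnj4.

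The second comparison asked what differs between young and old D1 neurons. Genes of an M-channel subunit, a Kv1 subunit, a silent subunit and an ERG channel rose, and genes of a leak channel, an ELK channel and inward rectifiers fell. In old D1, 4 of the 57 tested potassium channel genes were higher (Kcnq3, Kcna6, Kcns2 and Kcnh7) and 5 were lower (among them Kcnk2, Kcnj4, Kcnh3 and Kcnj11). That is 15.8% of the tested members beside 10.8% of all genes tested, with 5.39% of all genes higher and 5.44% lower. The median log2 fold change over the 57 was 0.15 and over all genes -0.06. At an unadjusted p under 0.05 there were 21 of 57, or 36.8%, beside 26.9% of all genes. In a list of 28 channels studied in SPNs, 25 were tested, of which 1 rose (Kcnq3) and 3 fell (among them Kcnk2 and Kcnj4), and the median log2 fold change was 0.37. Markers of other cells were summed beside these results. Microglia markers (8 genes, with C1qa at 0 in all 16 libraries) were 1.19 to 22.6 TPM in young D1 and 15.4 to 25.3 in old D1. GABAergic interneuron markers (8 genes) were 111 to 272 TPM in young D1 and 30.5 to 605 in old D1, and glutamatergic neuron markers (7 genes) 1.47 to 23.1 TPM in young D1 and 0.09 to 139 in old D1. Both of these ranges were wider in old D1. Oligodendrocyte markers (8 genes) were 135 to 296 TPM in young D1 and 75.6 to 204 in old D1, while endothelial and mural, oligodendrocyte precursor and ependymal markers stayed at or below 20.7 TPM in both groups. The part of these cells in the results was not tested.

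Among M-channel genes, Kcnq3 rose in old D1. Kcnq3 (ENSMUSG00000056258, chr15:65986387-66286642, minus strand) had 109, 123, 193 and 133 TPM in young D1 and 567, 677, 348 and 402 in old D1. Every old library exceeded every young one, and a single coding isoform held all of the gene's TPM in all 16 libraries. Its log2 fold change was 1.75 (SE 0.25, adjusted p = 3.36e-04). For Kcnq5 the libraries had 36.8, 33.9, 44.3 and 41.8 TPM in young D1 and 41.7, 53.2, 57.4 and 58.9 in old D1 and a log2 fold change of 0.31 (SE 0.23, adjusted p = 0.43). Kcnq3 kept its call under all alternatives but 1: once each library's trend over GC and length had been taken out, it was 0.66 (adjusted p = 0.0799).

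Of the Kv1 genes, Kcna6 rose, but nearly all of it is a transcript without coding bases. Kcna6 (ENSMUSG00000038077, chr6:126708329-126740674, minus strand) had 10.4, 15.5, 19.1 and 24.1 TPM in young D1 and 99.8, 108, 154 and 131 in old D1. The old libraries stood well clear of the young ones, and the log2 fold change was 2.53 (SE 0.52, adjusted p = 0.00425). Protein-coding isoforms held 1.45% of the gene's mean TPM, and the rest lay mostly in the processed transcript Kcna6-203 (chr6:126708331-126736811, 3 exons, 2080 bases), so the rise is not one of channel-coding mRNA as estimated here. Kcna1, Kcna2 and Kcna4, the axonal and somatodendritic Kv1 subunits, were not called. Kcna2 gave 1.31 (SE 0.50, adjusted p = 0.0977) and Kcna1 0.22 (SE 0.23, adjusted p = 0.594). Kcnab1 and Kcnab2, the beta subunits, gave 0.37 (SE 0.21, adjusted p = 0.275) and -0.66 (SE 0.22, adjusted p = 0.0561).

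A silent subunit and an ERG channel gene were also higher in old D1, and an ELK channel gene was lower. Kcns2, which has no current of its own and modifies other Kv channels, had 14.2, 8.27, 10.2 and 3.82 TPM in young D1 and 22.9, 32.8, 13.6 and 48.8 in old D1; the groups overlapped by the lowest old library, and the log2 fold change was 1.70 (SE 0.50, adjusted p = 0.0339). Kcnh7, of the ERG class, had 4.39, 5.13, 15.8 and 4.11 TPM in young D1 and 18.1, 20.6, 23.7 and 6.04 in old D1, overlapping, with a log2 fold change of 1.45 (SE 0.39, adjusted p = 0.0215). Kcnh3, of the related ELK class, had 33.1, 37.3, 32.6 and 97.8 TPM in young D1 and 19.1, 22.2, 29.9 and 7.1 in old D1. All old libraries lay below all young ones for Kcnh3, and the log2 fold change was -1.55 (SE 0.46, adjusted p = 0.0343). These 3 calls depend on single libraries. Kcns2 lost its call without replicate 2, 3 or 4 of young D1 and without replicate 2 or 4 of old D1 (adjusted p between 0.0592 and 0.105). Kcnh7 lost its call without replicate 1, 2 or 4 of young D1 and without replicate 3 of old D1 (0.0516 to 0.0744). Kcnh3 lost its call without young D1 replicate 4, its highest library (-0.90, adjusted p = 0.179), or old D1 replicate 1, 2 or 4 (0.0544 to 0.0665). Of 7 alternative analyses with all libraries kept, the call held for Kcns2 in 3, Kcnh3 in 3 and Kcnh7 in 4. Exons of Kcnh7 overlap those of Gca on the other strand by 696 bases.

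Of the inward rectifiers, Kcnj4 and Kcnj11 fell in old D1. Kcnj4, a strong inward rectifier that helps hold SPNs at rest, had 60.6, 42.1, 53.6 and 66 TPM in young D1 and 12.5, 19.7, 40.5 and 2.67 in old D1. The groups did not overlap, although old D1 itself spanned 2.67 to 40.5 TPM, and the log2 fold change was -1.72 (SE 0.53, adjusted p = 0.0422). The call was lost without any 1 of the 4 young D1 libraries and without old D1 replicate 1 or 2 (adjusted p between 0.0570 and 0.0995). Voom, the fit of only the compared groups and GC and length trend removal lost the Kcnj4 call as well. Kcnj2, the other strong rectifier of SPNs, had 25.9, 29, 43.5 and 56.4 TPM in young D1 and 19.8, 26.4, 59.9 and 134 in old D1, overlapping, with a log2 fold change of 0.59 (SE 0.48, adjusted p = 0.472) that turned to -0.33 without old D1 replicate 4. Kcnj11, the pore of the ATP-gated channel, was nearly absent from old D1: its counts were 212, 190, 81 and 35 in young D1 and 0, 9, 1 and 0 in old D1, or 8.78, 8.93, 2.65 and 1.38 and 0, 0.38, 0.05 and 0 TPM. The fitted log2 fold change was -5.60 (SE 1.57, adjusted p = 0.0273), a size that depends on the prior count because so few counts remain, and the call was lost without young D1 replicate 1 or 2 (adjusted p = 0.0593 and 0.0594). It was also lost with voom, with limma on log2(TPM + 1), with only the compared groups and after GC and length trend removal. Kcnj9, a G-protein-gated subunit, had 17.7, 19.2, 7.77 and 9.17 TPM in young D1 and 4.28, 5.72, 4.63 and 7.99 in old D1, with a log2 fold change of -1.29 (SE 0.54, adjusted p = 0.129). Kcnj10, the rectifier of astrocytes, had 1.7, 13.3, 2.25 and 0.53 TPM in young D1 and 12.6, 0, 10.9 and 19.3 in old D1, with a log2 fold change of 1.26 (SE 1.24, adjusted p = 0.566). Astrocyte markers summed over 10 genes to 60.4 to 134 TPM in young D1 and 239.5 to 404 in old D1; all 10 were above 0 in both groups, and their part in the age results was not tested.

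The leak channel gene Kcnk2 fell in old D1 as well. It had 44.4, 55.7, 60.02 and 53.3 TPM in young D1 and 31.1, 32.4, 32.5 and 28.5 in old D1. The highest old library lay below the lowest young one, and the log2 fold change was -0.87 (SE 0.20, adjusted p = 0.00835), against -0.56 (SE 0.20, adjusted p = 0.648) in D2. The D1 call held without any 1 of the 8 libraries and after GC and length trend removal (-1.16, adjusted p = 0.00255), but not with voom or with only the 2 groups in the fit. Kcnk1, at a similar level, had 85.9, 70.3, 70.03 and 80.3 TPM in young D1 and 78.8, 38.1, 152 and 53 in old D1 and a log2 fold change of -0.05 (SE 0.32, adjusted p = 0.956). Among the calcium- and sodium-activated channels, Kcnma1, Kcnn3 and Kcnt1 gave 0.91 (SE 0.34, adjusted p = 0.091), 1.12 (SE 0.74, adjusted p = 0.357) and -0.88 (SE 0.42, adjusted p = 0.183), and none was called.

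**Figure D2:**
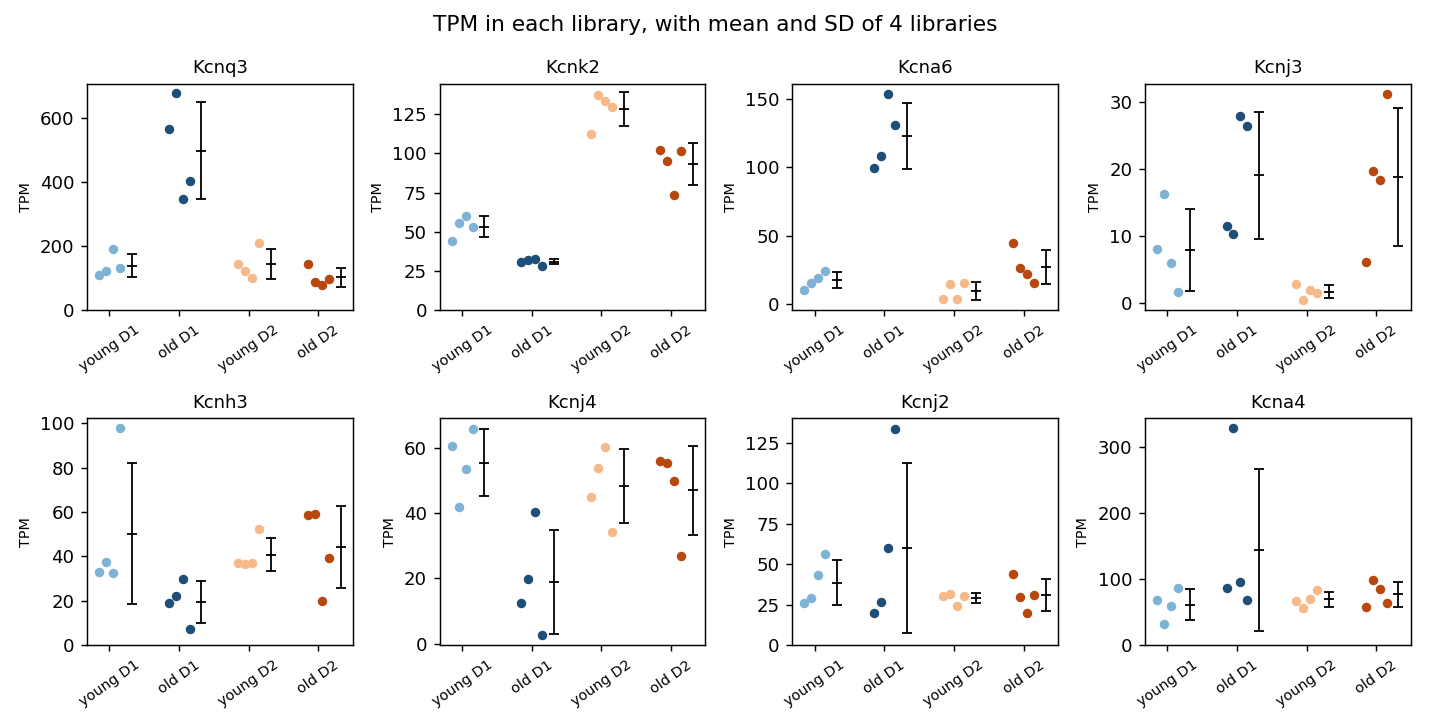
TPM (linear axis) of 8 potassium channel genes in each library, with the mean and SD of the 4 libraries of a group beside the points. Old D1 stands above the other groups for Kcnq3 and Kcna6 and below them for Kcnk2, Kcnj3 is low in young D2, and Kcnj2 and Kcna4 each have 1 old D1 library far above the others.

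The D1 age changes of the members went with base composition. Across the 56 tested members with a GC value, Spearman's rho between the GC content of the main isoform and the D1 log2 fold change was -0.53, against -0.34 across 13548 genes; the points share libraries, depth and sequence composition, and no p is given. The 4 genes that rose had 39.6% to 50.05% GC and the 5 that fell had 48.7% to 61.2%. In D2 neurons rho was -0.02 across the 56 members. When the trend over GC content and length was taken out of each library, rho in D1 became -0.09 and 2 calls remained in D1, Kcna6 higher at 2.52 (adjusted p = 0.00833) and Kcnk2 lower at -1.16. That removal shifted the median D1 change of all genes from -0.06 to -0.18. Under it Kcnj4 and Kcnh3 were at -0.79 and -0.51 with neither called, Kcnj2 went from 0.59 to -0.34 and Kcna4 from 0.70 to 0.01.

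**Figure D3:**
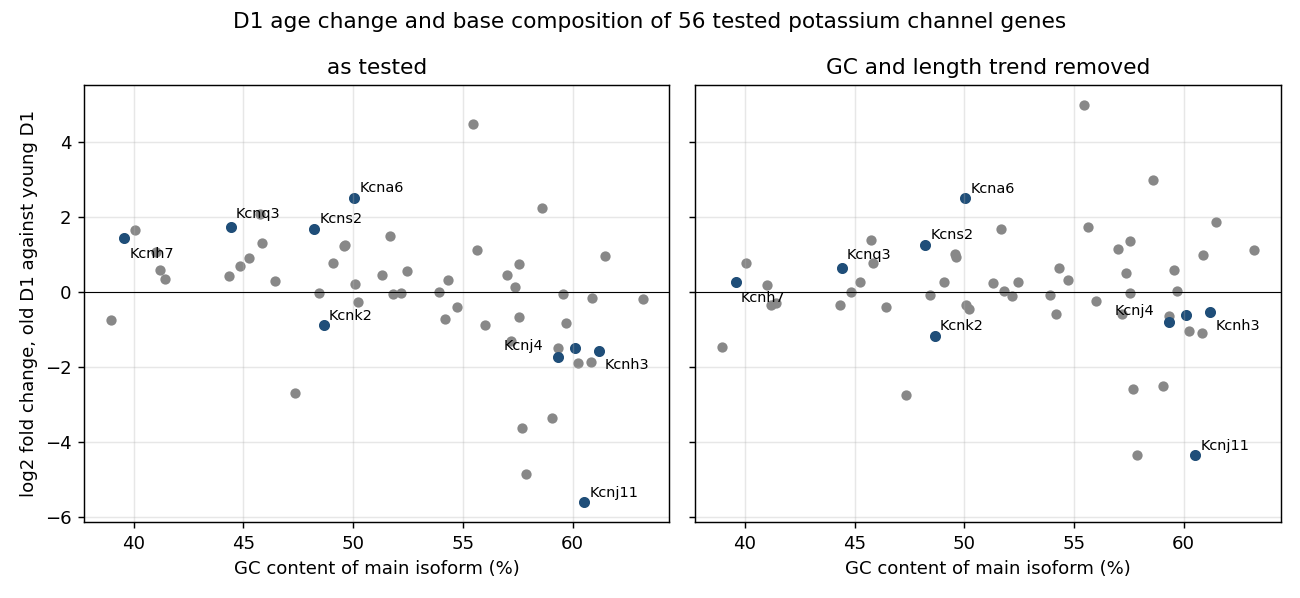
Log2 fold change of old against young D1 for the 56 tested potassium channel genes with a GC value, against the GC content of the main isoform in percent, as tested (left) and after each library's GC and length trend was taken out (right); dark points are the 9 genes called in the test as run. Spearman's rho went from -0.53 to -0.09, and Kcna6 and Kcnk2 kept their calls.

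How many members were called in D1, and in which direction, moved with the method. The split of 4 higher and 5 lower became 9 and 9 with DESeq2, 3 and 0 with voom, 2 and 3 with limma on log2(TPM + 1), 1 and 1 after GC and length trend removal, 2 and 0 with only the compared groups, and 3 and 6 with counts of protein-coding isoforms. Of all genes tested, the same settings called 18.7%, 3.98%, 11.8%, 6.00%, 2.49% and 11.4%. The members' share was above that of all genes in the test as run (15.8% beside 10.8%) and with DESeq2 (31.6%), voom (5.26%), the compared groups (3.85%) and protein-coding isoforms (16.1%). It was below that of all genes with limma (8.77%) and after GC and length trend removal (3.51%), so a larger share among the members does not hold across methods. DESeq2's 18 calls included all 9. Kcna6 and Kcnq3 were the genes called by edgeR, DESeq2, voom and limma alike. The added genes of DESeq2 included Kcna2, Kcna4, Kcnj3, Kcnma1 and Kcnv1 higher and Kcnab2, Kcnh2 and Kcnj9 lower.

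The third comparison asked the same of D2 neurons, and none of the 57 tested potassium channel genes was called between young and old D2. The background was small too: 0.0790% of all genes tested were called, 0.0646% higher and 0.0144% lower. At an unadjusted p under 0.05 there were 6 members (10.5%, beside 5.75% of all genes). DESeq2 and voom called 1 member each, beside 0.732% and 1.09% of all genes. The median log2 fold change of the 57 was 0.00, against 0.01 over all genes. The gene called by DESeq2 and voom was Kcnj3, a subunit of the G-protein-gated rectifier through which many inhibitory receptors act. It had 2.84, 0.49, 1.96 and 1.58 TPM in young D2 and 6.18, 19.6, 18.4 and 31.2 in old D2. All old D2 libraries exceeded all young D2 ones, and the log2 fold change was 2.99 (SE 0.67, adjusted p = 0.155); it was 3.01 (adjusted p = 1.82e-04) with DESeq2 and 3.16 (adjusted p = 0.0224) with voom. In D1 neurons Kcnj3 had 8.08, 16.3, 5.96 and 1.74 TPM in young D1 and 11.5, 10.3, 28 and 26.5 in old D1 and 1.65 (SE 0.64, adjusted p = 0.101). Astrocyte markers summed to 26.1 to 68.2 TPM in young D2 and 97.9 to 157 in old D2, and microglia markers to 0.74 to 4.87 and 6.71 to 16. Ependymal markers (5 genes, 2 of them above 0 in old D2) summed to 0 to 1.05 and 5.46 to 36.9. None of these marker sums overlapped between the groups, and the part of these cells in the D2 results was not tested. Exons of Kcnj3 overlap the non-coding gene Gm26794 on the other strand by 1621 bases.

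Genes that changed in D1 gave smaller or opposite values in D2, none of them called. Kcnq3 had 144, 122, 102 and 209.7 TPM in young D2 and 146, 87.4, 78.6 and 99 in old D2, overlapping, and a log2 fold change of -0.58 (SE 0.25, adjusted p = 0.748). Kcna6 had 3.35, 14.2, 3.85 and 15.3 TPM in young D2 and 44.2, 26.1, 21.9 and 15.1 in old D2 and 1.57 (SE 0.50, adjusted p = 0.54), the same direction as in D1. Kcnk2 had 113, 137, 133 and 129.7 TPM in young D2 and 102, 95.2, 73.8 and 102 in old D2, groups that did not overlap. Kcnab1 had 443, 300.1, 342 and 456 TPM in young D2 and 188, 279.9, 272 and 299 in old D2, with all old libraries below all young ones and a log2 fold change of -0.69 (SE 0.21, adjusted p = 0.488). Kcnj4 gave -0.13 (SE 0.51, adjusted p = 1). An adjusted p close to 1 does not show that levels were equal.

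The age change differed between D1 and D2 for Kcnq3 alone among the 57 tested members, by a test of the difference itself. Its change in D1 minus that in D2 was 2.32 (SE 0.35, adjusted p = 0.00499) on the log2 scale. In old D1 the gene was at 499 ± 151 TPM (SD, n = 4), against 139.5 ± 36.8 in young D1, 144 ± 46.9 in young D2 and 103 ± 29.8 in old D2. Of all genes tested 1.77% were called for such a difference, 0.926% with the higher change in D1 and 0.840% with the lower. The difference stayed called without any 1 of the 16 libraries, and was 1.22 (adjusted p = 0.0807) after GC and length trend removal. At an unadjusted p under 0.05 there were 14 members, or 24.6%, beside 16.9% of all genes. DESeq2 called Kcnab1 and Kcnh7 in addition, so that 3 members (5.26%) were called beside 7.32% of all genes. For no other gene that changed in D1 was a difference called. Kcna6 gave 0.96 (SE 0.69, adjusted p = 0.534), Kcnk2 -0.32 (SE 0.28, adjusted p = 0.629) and Kcnj4 -1.59 (SE 0.73, adjusted p = 0.27). For Kcnk2 the 2-year values lay below the 42-day values in each type, and the D2 change was not called.

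At 2 years, 10 potassium channel genes were called between D1 and D2 neurons, against 1 at 42 days. This comparison shares the old D1 libraries with the D1 age comparison, so the values below are not a separate sign of those changes. In old D1, 7 of the 57 tested genes were higher than in old D2 (Kcnq3, Kcnab1, Kcna6, Kcnh7, Kcns2, Kcnq5 and Kcnma1) and 3 were lower (among them Kcnk2 and Kcnj11). That is 17.5% of the tested members, beside 9.60% of all genes tested, of which 5.02% were higher and 4.58% lower. The median log2 fold change was 0.27 over the 57 and -0.07 over all genes. At an unadjusted p under 0.05 there were 25 of 57, or 43.9%, beside 25.4% of all genes. Markers of other cells separated the same groups: astrocyte markers (10 genes) summed to 239.5 to 404 TPM in old D1 and 97.9 to 157 in old D2, oligodendrocyte markers (8 genes) to 75.6 to 204 and 251 to 366, and cholinergic interneuron markers (6 measured genes) to 0.2 to 3.35 and 21 to 36.9. Ependymal markers (5 genes) were at 0 in old D1 and summed to 5.46 to 36.9 TPM in old D2. The part of all these cells in the 2-year results was not tested.

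Kcnq3 and Kcnk2 were called between the old groups under every setting tried. For Kcnq3 the libraries had 567, 677, 348 and 402 TPM in old D1 and 146, 87.4, 78.6 and 99 in old D2, and the log2 fold change was 2.40 (SE 0.26, adjusted p = 1.90e-05). For Kcnk2 they had 31.1, 32.4, 32.5 and 28.5 and 102, 95.2, 73.8 and 102 TPM, with -1.46 (SE 0.20, adjusted p = 1.73e-04). Neither gene's groups overlapped, and both calls held without any 1 of the 8 libraries too. Kcnk2 was lower in D1 at both ages, at -1.15 (SE 0.20, adjusted p = 0.0061) when young. Whether the gap between the types widened with age is the same test as the difference of age changes, and it was not called.

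The M-type gene Kcnq5, the BK gene Kcnma1 and the beta subunit gene Kcnab1 were also higher in old D1 than in old D2. Kcnq5 had 41.7, 53.2, 57.4 and 58.9 TPM in old D1 and 34.5, 32.8, 33.9 and 25.6 in old D2, without overlap, at 0.77 (SE 0.23, adjusted p = 0.0424). Kcnma1, the BK channel opened by calcium and voltage, had 45, 63.1, 54.8 and 51.7 and 45.2, 27.7, 12.6 and 16.8 TPM, and 1 old D2 library exceeded the lowest old D1 library; its log2 fold change was 1.09 (SE 0.34, adjusted p = 0.0477). Kcnab1 had 538, 455, 326 and 481 and 188, 279.9, 272 and 299 TPM and gave 0.84 (SE 0.21, adjusted p = 0.0169). The beta subunit gene Kcnab2 went the other way, at -0.68 (SE 0.22, adjusted p = 0.0521), with all old D1 libraries below all old D2 ones. It was not called, but DESeq2 called it lower (adjusted p = 0.00805). Kcnab3 gave 2.73 (SE 1.14, adjusted p = 0.138). Kcna6, Kcns2 and Kcnh7 gave 1.88 (SE 0.50, adjusted p = 0.0242), 1.73 (SE 0.50, adjusted p = 0.0341) and 1.43 (SE 0.39, adjusted p = 0.0247). The calls of Kcnq5 and Kcnma1 were each lost in 7 of 8 fits that left out 1 library (adjusted p 0.0611 to 0.140 and 0.05002 to 0.145); Kcnq5 kept its call without old D1 replicate 1 and Kcnma1 without old D2 replicate 1. Kcns2 and Kcnh7 lost theirs without old D1 replicate 2 or 4 and without old D1 replicate 1 or 3, respectively, and both without any 1 old D2 library (adjusted p 0.0518 to 0.107 over the 12 cases). Kcna6 lost its call without old D2 replicate 2 or 4 (0.0844 and 0.0789), and Kcnab1 without old D2 replicate 1 (0.0629). Of 7 alternative analyses with all libraries kept, the call held for Kcnq5 in 1 (DESeq2), Kcns2 in 2, Kcnma1 in 3 and Kcnh7 in 4. The Kcnab1 call was also lost with voom (adjusted p = 0.101), with only the compared groups (0.0876) and after GC and length trend removal (0.28, adjusted p = 0.406), and its direction turned with protein-coding isoforms only (-0.97).

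Kcnj11, too, was lower in old D1 than in old D2. Kcnj11 had counts of 0, 9, 1 and 0 in old D1 and 355, 169, 51 and 72 in old D2 and a fitted log2 fold change of -5.91 (SE 1.59, adjusted p = 0.0247). Without old D2 replicate 1 its adjusted p was 0.0642. The call was also lost with voom, with only the compared groups and after GC and length trend removal. Kcnj4, at 12.5, 19.7, 40.5 and 2.67 and 56, 55.5, 49.9 and 26.9 TPM, gave -1.26 (SE 0.52, adjusted p = 0.13) and was not called; it was called with limma on log2(TPM + 1), at -1.69 (adjusted p = 0.0464), and without old D1 replicate 3, at -1.94 (adjusted p = 0.0202). The split of 7 higher and 3 lower became 10 and 7 with DESeq2, 4 and 4 with limma on log2(TPM + 1), 4 and 4 with protein-coding isoforms, 4 and 3 without a count filter, 3 and 1 with voom, 3 and 1 after GC and length trend removal, and 2 and 1 with only the compared groups. In that order, these settings called 17.2%, 11.4%, 10.5%, 5.45%, 4.57%, 6.50% and 2.85% of all genes tested, and 29.8%, 14%, 14.3%, 9.33%, 7.02%, 7.02% and 5.77% of the members.

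**Figure D4:**
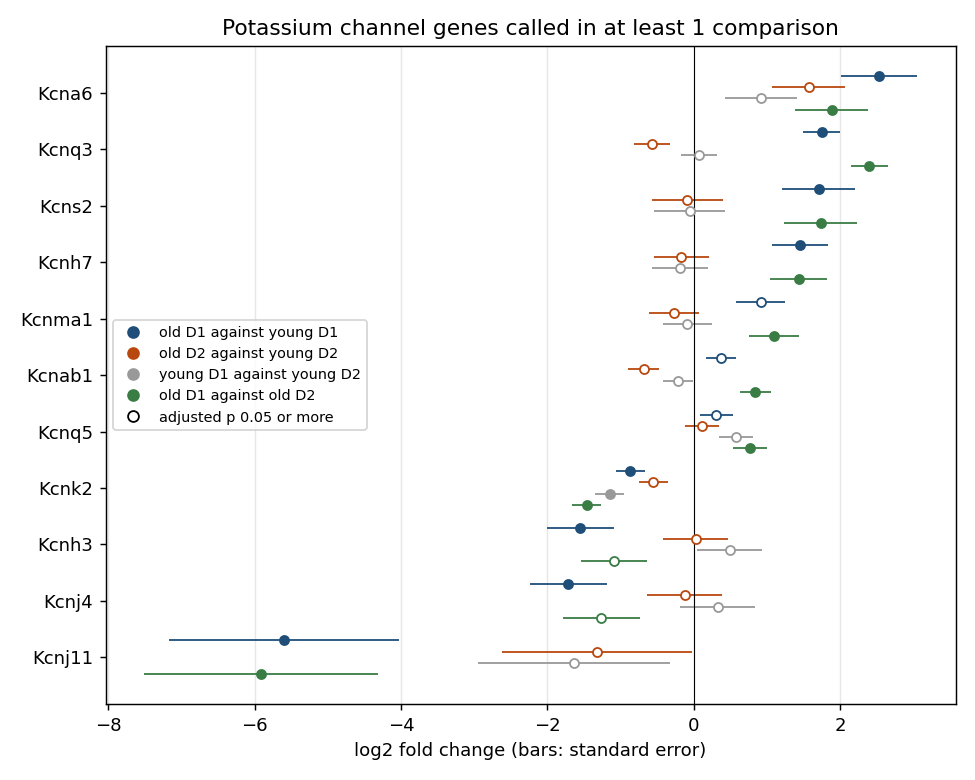
Log2 fold change with its SE (bars) for 11 of the 12 potassium channel genes called in at least 1 of 4 comparisons; filled points have an adjusted p under 0.05 and open points do not. Kcnk2 is negative in all 4, Kcnq3 is positive where old D1 is compared, and Kcnj11 has the longest bars.

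Isoform estimates changed the reading of some of these genes. RSEM divides a gene's fragments among annotated transcripts by a model, so these values are estimates, and no test was made on the shares. In 5 of the 20 highest genes, protein-coding isoforms held under 90% of the gene's mean TPM: Kcna4 (74.4%), Kcna6 (1.45%), Kcnab1 (48.1%), Kcnk2 (89.997%) and Kcnt1 (33.5%). In Kcnt1 the retained-intron transcript Kcnt1-208 took most of the rest.

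For Kcnab1 old D1 had less of the coding and more of the non-coding isoform by estimate. The coding isoform Kcnab1-201 (chr3:65109384-65378219, plus strand, 14 exons) had 222, 138, 235 and 91.8 TPM in young D1 and 88.4, 35.3, 43.6 and 103 in old D1. The processed transcript Kcnab1-204 (chr3:65188103-65378223, plus strand, 15 exons, no coding bases) had 164, 129, 151 and 143 and 449.8, 419.6, 282 and 378. Old D1 libraries thus all had more of Kcnab1-204 than any young D1 library. As a share of the gene's TPM, Kcnab1-201 made up 57.4, 51.7, 60.9 and 39.1% in young D1, 84.3, 93.1, 68.7 and 59.1% in young D2, 16.4, 7.75, 13.4 and 21.4% in old D1 and 47.9, 70.5, 71.3 and 41% in old D2. With counts of protein-coding isoforms only, an analysis added after the data were seen, Kcnab1 fell with age in D1, at -1.33 (SE 0.36, adjusted p = 0.0211), where the whole gene gave 0.37. Likewise its difference between old D1 and old D2 turned from 0.84 to -0.97 (adjusted p = 0.0875).

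For Kcna6 the processed transcript Kcna6-203 had 9.65, 12.1, 16.4 and 23.5 TPM in young D1, 2.73, 5.48, 3.23 and 14.6 in young D2, 99.2, 107, 152 and 129.98 in old D1 and 42.9, 25.3, 4.47 and 13.9 in old D2. It made up 98.7% to 99.3% of the gene in old D1. The coding isoform of Kcna6 was at 0 in all 4 old D1 libraries. The antisense gene Gm26673 shares 2355 exon bases with Kcna6 but 0 with the exons of Kcna6-203, and it ranged over 0 to 16.8 TPM in old D1. With protein-coding isoforms only, Kcna6 fell below the count filter, so no test of its coding mRNA was made.

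**Figure D5:**
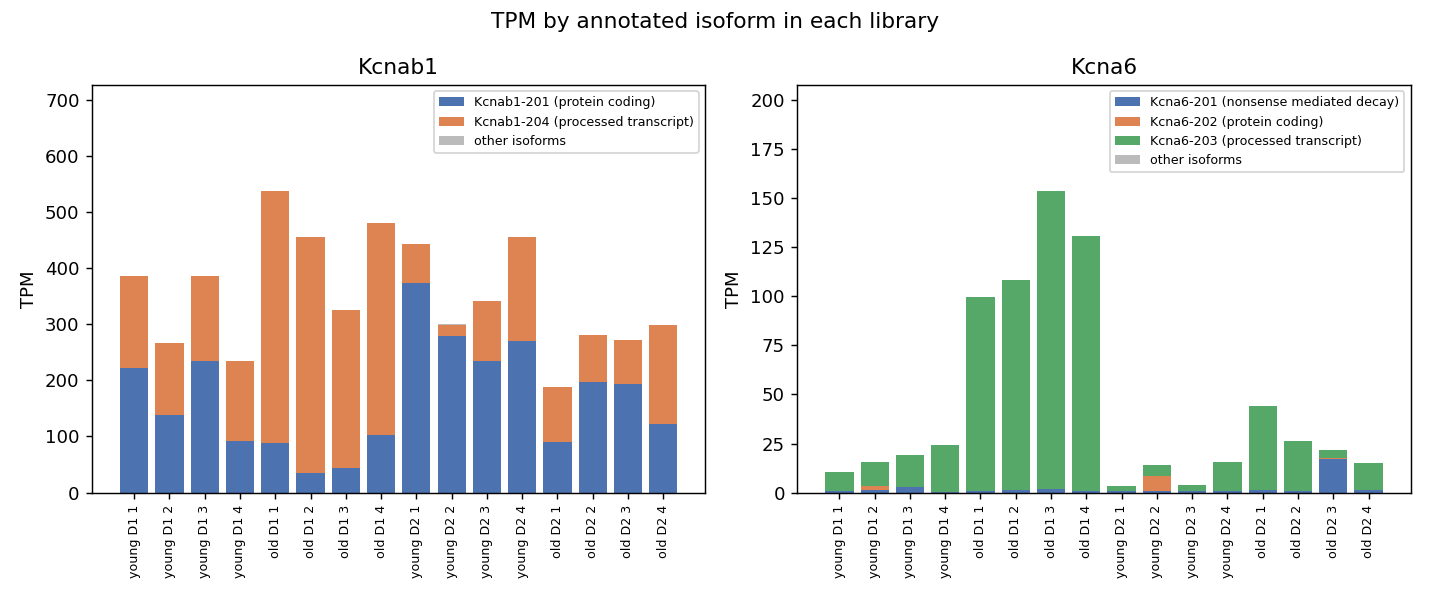
TPM of Kcnab1 (left) and Kcna6 (right) in each of the 16 libraries, with the parts of each bar from annotated isoforms as RSEM estimated them. The processed transcripts Kcnab1-204 and Kcna6-203 make up most of both genes in old D1, 78.6% to 92.2% and 98.7% to 99.3%.

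The 3 genes that stand for SPN rest and spike delay, Kcnj2, Kcnj4 and Kcna4, were present in all 16 libraries. Across the groups Kcnj2 had 25.9, 29, 43.5 and 56.4 TPM in young D1, 30.1, 31.6, 24.3 and 30.4 in young D2, 19.8, 26.4, 59.9 and 134 in old D1 and 43.7, 29.9, 19.6 and 31.2 in old D2. Old D1 replicate 4 was the highest, and no comparison called the gene. For Kcnj4, the D2 groups had 44.9, 54, 60.5 and 34.1 TPM when young and 56, 55.5, 49.9 and 26.9 when old, so the low values are those of old D1. Kcna4, the fast-inactivating Kv1 subunit, had 68.9, 31.3, 58.8 and 86.5 TPM in young D1, 67.5, 56.8, 70.5 and 83.9 in young D2, 87.2, 329, 95.8 and 68.1 in old D1 and 58.4, 99.2, 85.5 and 64.5 in old D2. One old D1 library, replicate 2, lay far above the rest, and in it a processed transcript of 370 bases held 65.0% of the gene's TPM. The coding isoform Kcna4-201 had 64.5, 31.3, 58.8 and 55.6 TPM in young D1 and 87.2, 115, 87.2 and 68.1 in old D1. Kcna4 as a whole gave 0.70 (SE 0.25, adjusted p = 0.0795) for age in D1, and DESeq2 alone called it (adjusted p = 0.0436).

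Partner proteins of potassium channels were read from a list of 24 genes (auxiliary subunits, scaffolds, sulfonylurea receptors and HCN channels), of which 20 were tested. The list was chosen with earlier results of these data known, so its share of calls is not an independent test. How the partner calls held under the alternative analyses is not given here. In old against young D1, 3 were higher and 1 lower, 4 of 20 beside 10.8% of all genes. Akap5, the anchor that brings kinases to M-channels, rose: it had 359, 308, 309 and 287 TPM in young D1 and 620.5, 644, 576 and 510.1 in old D1, without overlap, and 0.90 (SE 0.14, adjusted p = 4.80e-04). Dpp10 and Kcnip4, auxiliary subunits of Kv4 channels, rose at 1.47 (SE 0.39, adjusted p = 0.0203) and 1.25 (SE 0.36, adjusted p = 0.0327). For Kcnip4 the groups overlapped, at 37.9 to 94 TPM in young D1 and 50.2 to 254 in old D1. Dpp10 gave a similar value in D2, at 1.57 (SE 0.39, adjusted p = 0.263), with 7.42, 12.3, 2.95 and 7.68 TPM in young D2 and 32.7, 22.1, 22.2 and 19.8 in old D2 and no overlap, and its age changes differed by -0.10 (SE 0.54, adjusted p = 0.958). Dlg4, the scaffold PSD-95 that clusters Kv1 and inward rectifier channels, fell: it had 1183, 1166, 738 and 1160.4 TPM in young D1 and 361, 203, 617 and 487 in old D1, without overlap, and -1.64 (SE 0.19, adjusted p = 8.84e-05). In D2 neurons none of the 20 was called with age, beside 0.0790% of all genes. Akap5 and Dlg4 also differed in their age change between the types, at 0.86 (SE 0.19, adjusted p = 0.0283) and -1.36 (SE 0.27, adjusted p = 0.0178), and between old D1 and old D2, at 1.15 (SE 0.14, adjusted p = 4.47e-05) and -1.47 (SE 0.19, adjusted p = 1.16e-04). These are 2 of 20 in each case, beside 1.77% and 9.60% of all genes. No partner was called between young D1 and young D2 (0.409% of all genes). The most abundant Kv4 partner, Kcnip2, had 295, 352, 289 and 451 TPM in young D1 and 413, 336, 529 and 234 in old D1 and gave -0.02 (SE 0.22, adjusted p = 0.97).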

How the data were processed

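RNA of the 16 TRAP libraries was amplified by NuGEN Ovation V2, per the labels' protocols. The authors deposited RSEM expected counts and TPM per gene and per isoform, made with STAR 2.5.1b and RSEM 1.2.20 on mm10, per the submitters' processing notes and the file headers. For the annotation release and the strand setting, the sources used here give nothing. Names and positions came from GENCODE M21, matched by gene ID (37607 of 39017 genes).

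Expected counts were rounded (20.0% of nonzero values were not whole), filtered with filterByExpr and scaled by TMM, and 13926 genes were fitted over all 16 libraries with 1 mean per group by edgeR 4.0.16 (robust quasi-likelihood, two-sided, Benjamini-Hochberg over all tested genes, limma 3.58.1, R 4.3.3). A gene was called at an adjusted p under 0.05, and SE is the log2 fold change over the square root of F. The common biological coefficient of variation over all genes was 97.8%. TPM, which corrects for transcript length, was used for levels. Labels give no batch or pairing, and replicate numbers follow record order.

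Alternatives were DESeq2 1.42.0, no count filter, voom with library weights, limma on log2(TPM + 1), a GC and length trend (natural splines, 5 degrees of freedom) removed per library, only the compared groups, and each library left out. Counts of protein-coding isoforms only, and a fit without old D1, were added after the data were seen. The fits were run on simulated counts with known changes and a GC trend put into old D1. The measured differences of the old D1 libraries in detected genes and fragment length were not simulated. The members and lists were chosen with earlier results of these data known. Described genes were the 20 of highest mean TPM, those called, Kcnj2, Kcnj4 and Kcna4, and a list of channels studied in SPNs; marker lists were those of other striatal cells. A few genes and sequences among these are counted in totals but not reported here. RSEM shares ambiguous fragments among isoforms and overlapping genes by a model, so those values are uncertain, and amplified copies are counted repeatedly.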

Additional observations from a re-analysis of the deposited data

Results flagged for a closer look

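The age change of Kcnq3 differed between the neuron types, by 2.32 on the log2 scale (D1 minus D2), from a test of the difference itself. Single libraries also stood far from the other 3 of their group by Dixon's test on TPM, in 9 of 91 groups tested; chance flags about 1 in 20. Of the Kv1 genes, Kcna4 was 329 TPM in old D1 replicate 2 against 68.1 to 95.8 in the others, Kcna2 was 187 TPM in old D1 replicate 4 against 24.2 to 52.0, and Kcna1 was 72.6 TPM in old D2 replicate 4 against 52.5 to 55.2. Kcnh3 was highest in replicate 4 of both young groups, at 97.8 TPM in D1 against 32.6 to 37.3 and at 52.2 TPM in D2 against 36.8 to 37.3. Kcnh7 was 15.8 TPM in young D1 replicate 3 against 4.11 to 5.13. Among silent subunits, Kcng1 was 45.9 TPM in young D2 replicate 1 against 22.4 to 23.9, and Kcnv1 was 9.72 TPM in young D1 replicate 4 against 20.8 to 22.2 and 38.9 TPM in old D2 replicate 1 against 16.6 to 19.1.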

How the results depend on the processing

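The count of called members changed with the method. For age in D1 it was 9, and 18 with DESeq2, 3 with voom, 5 with limma on log2(TPM + 1), 2 after GC and length trend removal and 2 with only the compared groups; it ranged from 5 to 12 with 1 library left out, and was 5 without young D1 replicate 2 or 4. For D1 against D2 at 2 years it was 10, and 17 with DESeq2, 4 with voom, 4 after GC and length trend removal and 3 with only the compared groups; it ranged from 4 to 13 with 1 library left out. For age in D2 it was 0, and 1 with DESeq2 and 1 with voom, and stayed 0 without each library. For the difference of age changes it was 1, and 3 with DESeq2 and 0 after GC and length trend removal, with 1 to 3 when a library was left out. For D1 against D2 at 42 days it was 1 in every alternative and without each library. Shares of all genes called by these methods are given above for age in D1 and for 2 years. For age in D1 the members' share was below them with limma and after GC and length trend removal. With 1 library left out, 6.28% to 14.2% of all genes were called for age in D1 and 4.82% to 13.0% at 2 years. Those fits called 0.0347% to 0.0833% for age in D2 and 0.459% to 4.55% for the difference, which was 0.366% after GC and length trend removal. At 42 days they called 0.277% to 0.325%, and the alternatives 0.289% to 1.39%. Of the values for single genes, 426 kept direction and side of the threshold, 108 lost the call, 5 gained one and 19 changed sign. Of the 19, 1 was a called value, Kcnab1 at 2 years, to -0.97 with protein-coding isoforms only, and 18 were values not called in either setting. Kcnj2 turned after GC and length trend removal to -0.34 for age in D1 and -0.32 for the difference of age changes, and for age in D2 was 0.0086 with DESeq2 and 0.046 with limma. Kcna4 was 0.12 for age in D2 with limma, and 0.0199 between young D1 and D2 after GC and length trend removal. With 1 library left out, Kcnj2 ranged from -0.33 to 0.90 for age in D1, from -0.32 to 0.90 for the difference and from -0.20 to 0.16 for age in D2, Kcna4 from -0.22 to 0.034 for age in D2 and from -0.21 to 0.0995 between young D1 and D2, and Kcnj4 from -0.28 to 0.079 for age in D2. The cause of these changes was not tested. The median change of all genes in D1 shifted from -0.06 to -0.38 with voom and to -0.18 after GC and length trend removal. No paired analysis was possible because replicate numbers follow the order of the records and pair nothing. Where a gene has few counts, as Kcnj11 in old D1, depth limits the size of a change.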
